A study of Mus musculus with 12 samples.

Results

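Transcripts of mouse jejunal enteroids lacking Hdac1 were compared with those of control enteroids, over 8 of the 12 RNA-Seq libraries of the series, 4 from each group by the genotype in the sample labels. Enteroids are budding epithelial cultures grown from intestinal crypts in Matrigel, and hold stem, absorptive and secretory cells but no immune or stromal tissue. Control enteroids came from villin-Cre mice with intact Hdac genes, and Hdac1-deficient enteroids (HDAC1-/- in the labels) from mice whose floxed Hdac1 alleles were deleted by villin-Cre, a recombinase made in intestinal epithelium. Both groups shared the Cre transgene as the study describes it, a mixed C57BL/6J, 129SV and CD1 background, and 5 days of growth in ENR medium, which contains EGF, Noggin, R-spondin 1 and the antioxidant N-acetylcysteine. The methods name 1 mouse of each genotype as the source of crypts, so genotype, mouse and line cannot be told apart, and p-values measure only the spread among libraries that may be repeat cultures of 1 line. Another 4 libraries, from Hdac2-deficient enteroids, serve below only where Hdac1-deficient libraries were set directly against them.

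HDAC1 removes acetyl groups from histones and other proteins, mostly as the catalytic subunit of the NuRD, Sin3 and CoREST corepressor complexes, where its close paralog HDAC2 can take its place. In the crypt, Wnt and EGF signals maintain stem cells, Notch directs daughter cells to the absorptive fate, and cells that escape Notch become goblet, Paneth, enteroendocrine or tuft cells. Absorptive enterocytes then acquire brush border hydrolases, nutrient transporters and the machinery that packs dietary fat into lipoproteins.

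Between 23747940 and 30658628 reads were counted on genes in each library (median 29104951 in control and 28662159 in Hdac1-deficient libraries), so that 3 counts equalled 0.0979 to 0.126 CPM (counts scaled to library size). This value served as the limit of detection, and covers counting error only. Of 18676 listed genes, 14246 passed the filter on low counts and were tested with edgeR's quasi-likelihood test. A gene is termed called below when its Benjamini-Hochberg adjusted p was at most 0.05 and its change more than 2-fold. A gene is said to have risen or fallen where the adjusted p was at most 0.05, whatever the fold. Hdac1 itself (ENSMUSG00000028800, chromosome 4, 129516104 to 129542713, GRCm38) was counted at 94.4, 88, 89.7 and 90.6 CPM in control and 3.41, 3.701, 5.14 and 4.84 CPM in Hdac1-deficient libraries (log2 fold change -4.40, standard error 0.076, edgeR adjusted p = 5.6e-19), so the libraries bore out their labels with a low remainder of Hdac1 reads. Cdx2, the homeobox gene that marks intestinal epithelium, was counted at 268, 262, 258 and 263 CPM in control and 262, 269, 271 and 258 CPM in Hdac1-deficient libraries (edgeR adjusted p = 0.73). Of 25 markers of immune, stromal and other non-epithelial cells, 11 were listed and 5 tested, and the whole list held 0.0008 to 0.0009% of counts in control and 0.0009 to 0.0012% in Hdac1-deficient libraries. Its defining members Ptprc (leukocytes) and Col1a1 (fibroblasts) reached at most 0.146 and 0.197 CPM in any library. The myeloid marker Itgam was the 1 of the 5 called, from 0.938, 0.814, 0.794 and 0.799 CPM to 1.67, 1.64, 2.39 and 2.49 CPM (log2 fold change 1.28, edgeR adjusted p = 9.0e-06), and the part of such cells in the results was not tested.

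The transcriptome shifted broadly but mostly by small amounts. At more than 2-fold, 979 genes were called higher (6.87% of tested genes) and 528 lower (3.71%), whereas 4656 (32.7%) rose and 4540 (31.9%) fell at any fold, 64.6% of genes in all. The median log2 fold change over all tested genes was -0.004, with 5% of genes below -0.82 and 5% above 1.25. Libraries of the groups did not overlap for 58.3% of tested genes. More than 4-fold changes were fewer, with 344 genes higher and 147 lower, and 88 and 33 genes respectively moved by more than 16-fold. Calls concentrated among weakly expressed genes, in part because of the filter. It keeps genes counted in either group alone, so some weak genes were tested through the group where they were high and had to differ. Of genes averaging below 0 on the log2 CPM scale, 20.4% were called higher and 9.84% lower, against 2.33% and 1.45% of the 4631 genes between 4 and 6 and 2.53% and 0.745% of the 671 genes of at least 8. In all, 70 of the called higher genes had at most 3 counts in every control library, and 22 of the called lower genes had at most 3 counts in every Hdac1-deficient library. Processed pseudogenes made up 10.4% of genes called lower and 2.8% of genes called higher, against 4.8% of tested genes; reads from these copies cannot always be told from those of their parent genes.

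**Figure D1:**
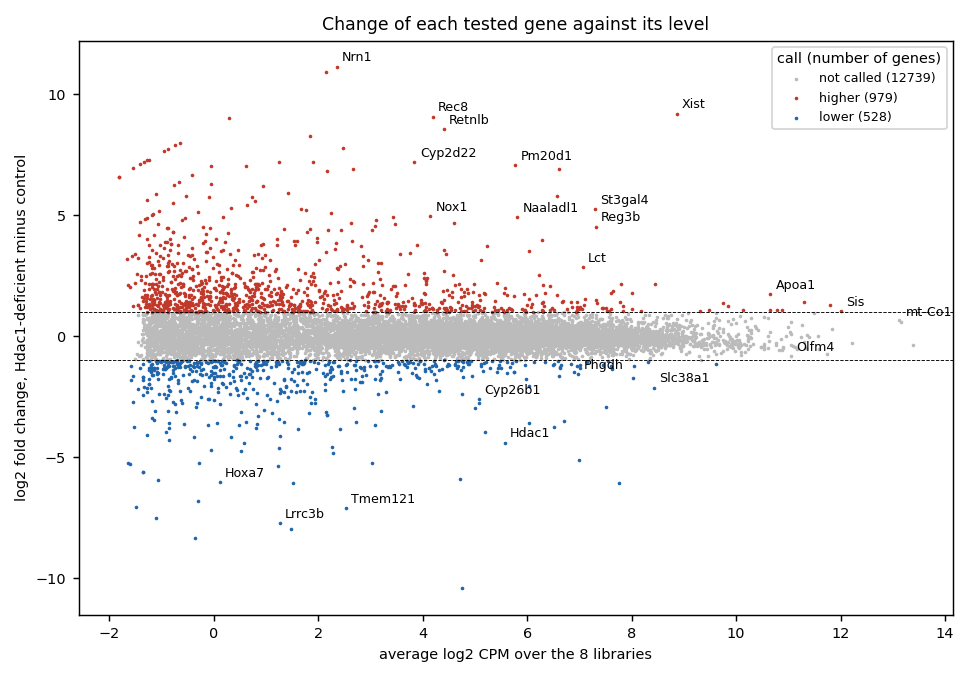
Log2 fold change (Hdac1-deficient minus control, vertical axis) of each of the 14246 tested genes against its average log2 CPM over 8 libraries (horizontal axis), with called higher genes in red, called lower genes in blue and dashed lines at 2-fold. Large changes lie mainly on the left among weakly expressed genes, whereas abundant genes such as Apoa1, Sis and mt-Co1 moved by up to a few fold. Some weak genes passed the filter only through the group where they were high.

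Changes were ranked among called protein-coding genes averaging 1 or more on the log2 CPM scale, with groups not overlapping. The 10 largest increases in this ranking were in genes that control enteroids hardly transcribed. Nrn1 (ENSMUSG00000039114, chromosome 13, 36725361 to 36735131), which encodes the neuronal surface protein neuritin, had no count in any control library and 10.6, 10.1, 10.8 and 8.13 CPM in the Hdac1-deficient libraries, at least 78.7-fold higher (edgeR adjusted p = 6.7e-14). Retnlb (ENSMUSG00000022650, chromosome 16, 48816856 to 48818892), a goblet cell product with bactericidal activity, was counted at 0.134, 0.106, 0.0992 and 0.0841 CPM in control and 40.5, 44.7, 45.8 and 35.2 CPM in Hdac1-deficient libraries (log2 fold change 8.55, standard error 0.17, edgeR adjusted p = 6.7e-18). Slc15a2 (ENSMUSG00000022899, chromosome 16, 36750177 to 36784962), a proton-coupled peptide transporter better known from kidney than gut, had 0 to 1 counts per control library and 6.79, 6.36, 7.53 and 7.14 CPM in the Hdac1-deficient libraries, at least 55.1-fold higher (edgeR adjusted p = 1.5e-15). Pm20d1 (ENSMUSG00000042251, chromosome 1, 131797381 to 131821473), which encodes a secreted enzyme that makes N-acyl amino acids, was counted at 0.871, 0.849, 0.959 and 0.463 CPM in control and 109, 105, 108 and 110.5 CPM in Hdac1-deficient libraries (log2 fold change 7.07, standard error 0.080, edgeR adjusted p = 3.3e-23). Crym, which encodes the thyroid hormone binding protein mu-crystallin, was at least 56.7-fold higher, and Nlrp1b, an inflammasome sensor with close copies that make its counts uncertain, at least 36-fold (edgeR adjusted p = 1.4e-14 and 9.0e-14). The other members of this top 10 were Rec8, Nos2, Cyp2d22 and AI467606, with log2 fold changes of 9.08, 7.80, 7.20 and 6.92. These last 4 values depend on control counts near 0, and Nos2 is better given as at least 86.6-fold higher. The size of the Retnlb change likewise depends on control counts near 0 (4, 3, 3 and 2 counts). Apart from Pm20d1, the members of this top 10 passed the filter through the Hdac1-deficient libraries alone and had to differ.

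The 10 protein-coding genes with the largest decreases in the same ranking included Hdac1 itself. Tmem121 (ENSMUSG00000049036, chromosome 12, 113185930 to 113189523), a membrane protein gene, was counted at 12.3, 12.3, 10.2 and 10.8 CPM in control and 0.114, 0.0328, 0.0332 and 0.146 CPM in Hdac1-deficient libraries (log2 fold change -7.10, standard error 0.21, edgeR adjusted p = 2.3e-16). Lrrc3b (ENSMUSG00000045201, chromosome 14, 15357515 to 15438987), which encodes a leucine-rich repeat membrane protein, was at least 41.1-fold lower. Slc19a3, a thiamine transporter gene, was counted at 3.72, 4.56, 5.75 and 3.66 CPM in control and 0.114, 0.0655, 0.133 and 0.1099 CPM in Hdac1-deficient libraries (log2 fold change -5.35, standard error 0.27, edgeR adjusted p = 1.3e-12). Cym, the gene of the milk-clotting protease chymosin, went from 18.9, 14.8, 13.5 and 15.8 CPM to 0.379, 0.426, 0.365 and 0.476 CPM (log2 fold change -5.25, edgeR adjusted p = 6.4e-16). Tbxas1, which encodes thromboxane A synthase, went from 8.85, 8.595, 9.59 and 9.97 CPM to 0.303, 0.426, 0.332 and 0.476 CPM (log2 fold change -4.57, edgeR adjusted p = 7.6e-16). In each of these genes all Hdac1-deficient libraries lay below all control libraries, which the ranking required. Tmem121, Lrrc3b and Slc19a3 passed the filter through the control libraries alone and had to differ. Tbxas1, with 8, 13, 10 and 13 counts in Hdac1-deficient libraries, would not have passed on those alone, so the filter favoured its fall. The remaining 4 were the serine protease gene Prss22 (-4.64) and Gm9008, AK157302 and Gm4737, which may share reads with related sequences and are uncertain for that reason. Prss22, Gm9008 and AK157302 likewise passed the filter through the control libraries alone and had to differ.

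Promoter windows, the 250 bases before to 50 bases after a gene's start, were found in RefSeq's table (GRCm38.p6) for 9483 of 12350 tested protein-coding genes. Genes whose window was poor in CG pairs were called more often. The ratio of CG pairs observed to those expected from the C and G content exceeded 0.6, a usual limit for CpG islands, in 72.4% of all windows, 36.4% of windows of genes called higher (588 windows) and 50.5% of those called lower (279 windows). Among genes above the limit, 3.12% were called higher and 2.05% lower, and among genes at or below it 14.3% and 5.28%. Among genes averaging 4 or more on the log2 CPM scale, a limit set after these shares were seen, the shares called higher were 0.875% above and 6.85% at or below the ratio of 0.6 and the shares called lower 0.661% and 2.03%. The printed windows give the 250 bases before the start on the gene's own strand for a brush border gene and a pair of nearly silent genes that increased, and for a pair that decreased, with each CG pair in capitals. Lct lies at chr1:128328319-128328568 (minus strand), Slc15a2 at chr16:36784963-36785212 (minus), Nlrp1b at chr11:71230734-71230983 (minus), Tmem121 at chr12:113185653-113185902 (plus) and Epha7 at chr4:28812881-28813130 (plus).
Lct: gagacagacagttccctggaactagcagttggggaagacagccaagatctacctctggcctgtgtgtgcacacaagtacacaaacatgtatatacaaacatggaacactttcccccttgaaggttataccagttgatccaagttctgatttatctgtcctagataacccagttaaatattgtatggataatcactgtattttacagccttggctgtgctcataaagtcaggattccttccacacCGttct
Slc15a2: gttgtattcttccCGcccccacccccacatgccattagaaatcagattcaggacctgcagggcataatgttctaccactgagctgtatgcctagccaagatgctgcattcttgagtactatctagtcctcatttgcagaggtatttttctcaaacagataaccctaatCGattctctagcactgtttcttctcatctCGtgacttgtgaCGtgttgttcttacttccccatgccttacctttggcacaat
Nlrp1b: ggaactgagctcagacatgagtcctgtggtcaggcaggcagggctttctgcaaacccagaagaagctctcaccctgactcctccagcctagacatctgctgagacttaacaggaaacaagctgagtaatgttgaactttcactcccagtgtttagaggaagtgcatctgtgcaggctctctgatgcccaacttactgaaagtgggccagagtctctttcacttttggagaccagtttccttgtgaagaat
Tmem121: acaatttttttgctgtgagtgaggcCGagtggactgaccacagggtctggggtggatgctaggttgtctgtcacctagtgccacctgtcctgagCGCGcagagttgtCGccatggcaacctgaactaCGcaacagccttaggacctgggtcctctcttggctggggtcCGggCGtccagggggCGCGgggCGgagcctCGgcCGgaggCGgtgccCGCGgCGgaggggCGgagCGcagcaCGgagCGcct
Epha7: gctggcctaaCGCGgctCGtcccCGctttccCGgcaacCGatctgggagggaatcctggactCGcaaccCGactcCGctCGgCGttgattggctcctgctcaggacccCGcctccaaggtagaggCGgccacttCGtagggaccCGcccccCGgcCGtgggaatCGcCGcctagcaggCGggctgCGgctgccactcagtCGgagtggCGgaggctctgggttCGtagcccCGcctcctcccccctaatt

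The windows of the increased genes Lct, Slc15a2 and Nlrp1b held 1, 4 and 0 CG pairs, and those of the decreased genes Tmem121 and Epha7 held 20 and 25. This contrast does not hold for all genes, since the 250 bases before the decreased gene Lrrc3b held 5 and those before the increased genes Col4a1, St3gal4 and Rec8 held 31, 25 and 10. Short letter motifs were also counted on both strands of the 300-base windows. TTTC, any 2 bases and TTTC again, letters within the interferon response element, occurred in 4.25% of windows of genes called higher, 3.58% of genes called lower and 2.91% of all windows. TGACTCA (AP-1) occurred in 5.61%, 4.66% and 3.6%, CACGTG (an E-box) in 10%, 10% and 10.3%, and TTTATGG or TTTATTG (CDX factors) in 5.95%, 4.3% and 4.33%. CAAAGTCCA (HNF4 factors) was rare, in 7 of 588, 2 of 279 and 45 of 9483 windows. A match of letters is a description and not a binding site.

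Members of 51 hand-made gene lists were then read from the same test. Counts of called members are to be set against 6.87% higher and 3.71% lower among all tested genes, and list medians against -0.004. Counts of members that rose or fell at any fold are to be set against 32.7% and 31.9%, and several lists lie near these shares. The lists share some genes, and in the 8 lists with members at or under 3 counts per library in 1 group the median did not change when those members were set to their bound. Since enteroids are mixtures, fewer cells of a type and less RNA per cell cannot be told apart.

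**Figure D2:**
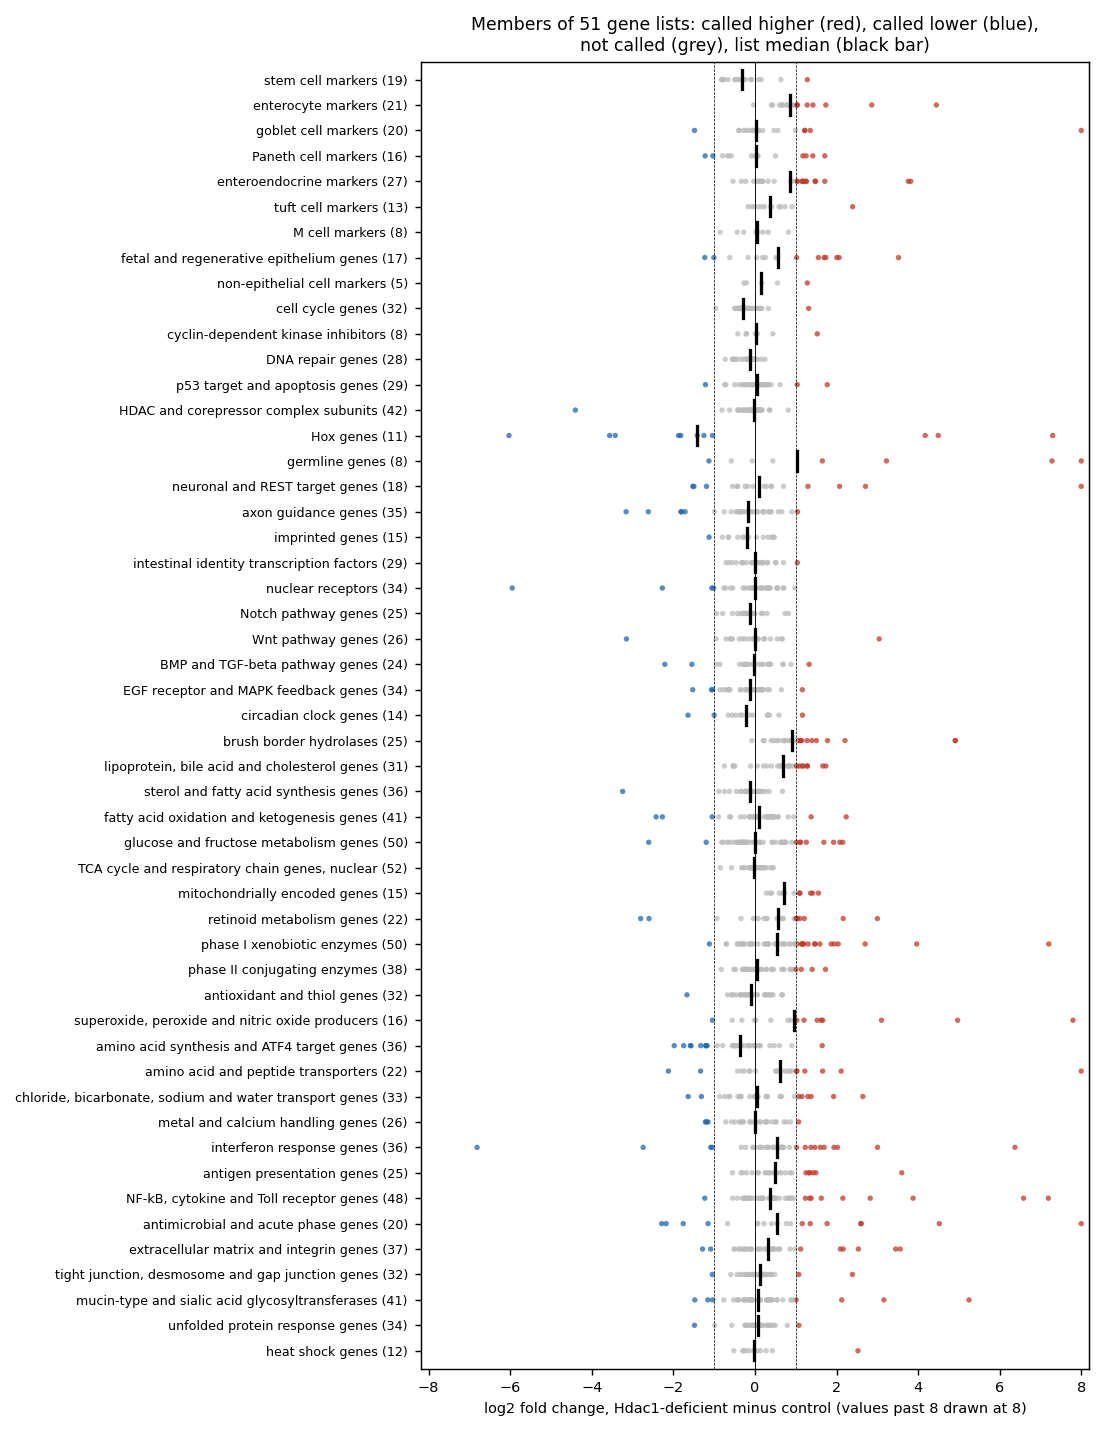
Each row is 1 gene list with the number of tested members in brackets, each point the log2 fold change (Hdac1-deficient minus control, horizontal axis) of 1 member, red when called higher, blue when called lower and grey when not called, and each black bar the list median. Lists of brush border hydrolases (0.90) and enterocyte (0.87) and enteroendocrine (0.87) markers lie to the right, whereas Hox genes (-1.42), amino acid synthesis genes (-0.37), stem cell markers (-0.32) and cell cycle genes (-0.29) lie to the left.

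Stem cell markers were lower as a group by modest amounts. Of 19 tested markers, 13 fell, 3 rose and 3 did not pass the test, and the median log2 fold change was -0.32. Their share of all counts went from 0.6326 to 0.6398% in control to 0.4015 to 0.4613% in Hdac1-deficient libraries. Lgr5, the R-spondin receptor that marks crypt base columnar stem cells, was counted at 232, 266, 260.3 and 247 CPM in control and 154, 152, 154 and 137 CPM in Hdac1-deficient libraries (log2 fold change -0.75, standard error 0.045, edgeR adjusted p = 5.6e-11). Olfm4, an abundant Notch-dependent marker of the same cells, was counted at 2847, 2648, 2625 and 2709 CPM in control and 1554, 1675, 1501 and 1415 CPM in Hdac1-deficient libraries (log2 fold change -0.82, standard error 0.045, edgeR adjusted p = 6.1e-12). In both genes every Hdac1-deficient library lay below every control library, although neither passed the 2-fold limit. Tnfrsf19, a Wnt target, was the sole marker called, and rose from 1.44, 1.84, 1.75 and 1.09 CPM to 3.64, 3.87, 4.02 and 3.55 CPM.

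Cell cycle genes followed the same pattern, with 24 of 32 lower, 3 higher and a median of -0.29. The exceptions included widely used markers of proliferation. Mki67 was counted at 199.5, 295, 260.4 and 266 CPM in control and 294, 269, 256 and 250.0 CPM in Hdac1-deficient libraries. Ccnd1, the cyclin D1 gene, was counted at 193, 201, 196 and 192 CPM in control and 206, 194, 194 and 192 CPM in Hdac1-deficient libraries. Neither passed the test (edgeR adjusted p = 0.66 and 0.9). E2f2, a transcription factor gene of cell cycle entry, was called higher, from 37.9, 38.7, 39.2 and 41.2 CPM to 101, 92.6, 94.8 and 103 CPM (log2 fold change 1.32, edgeR adjusted p = 1.2e-15). Of 28 DNA repair genes 13 fell and 1 rose, none by 2-fold, with a median of -0.13. Brca1 had a log2 fold change of -0.12 (edgeR adjusted p = 0.071) and passed the threshold without control replicate 1 (-0.14, adjusted p = 0.032) or Hdac1-deficient replicate 1 (-0.16, adjusted p = 0.019). Among 8 tested cyclin-dependent kinase inhibitors, Cdkn2a alone was called, from 0.838, 1.03, 0.827 and 1.22 CPM to 2.81, 2.85, 2.42 and 3.11 CPM. Cdkn1a, the main p53-induced inhibitor, had a log2 fold change of 0.05 (edgeR adjusted p = 0.18). The p53 target and apoptosis list had a median of 0.04, with 13 of 29 members higher and 10 lower. Its called members were Bcl2l15 (1.77), Trp53inp1 (1.04) and the death receptor gene Eda2r (-1.21), and Trp53inp1 fell under the 2-fold limit without control replicate 1 or Hdac1-deficient replicate 4 (lowest value 0.97).

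**Figure D3:**
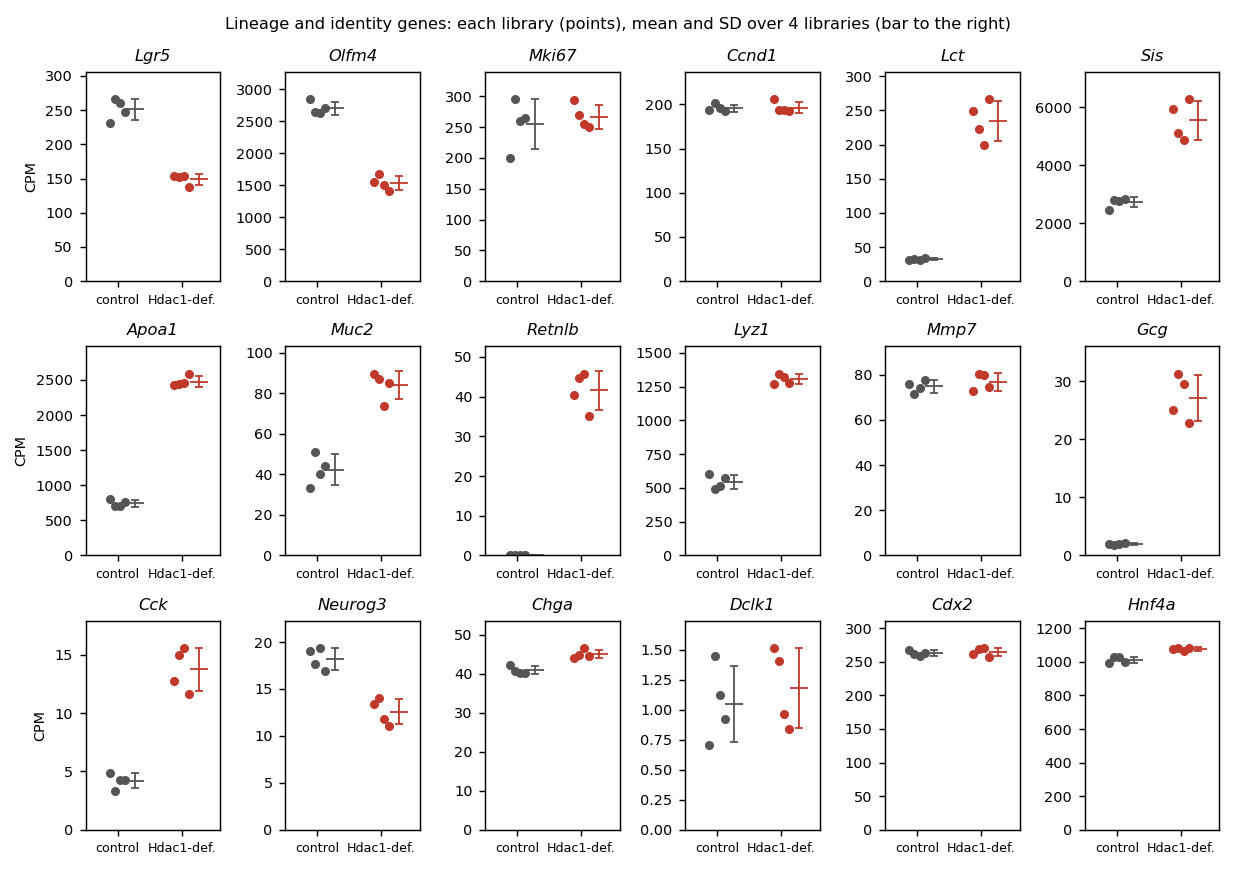
CPM (vertical axes, each from 0) of 18 lineage and identity genes in each of 4 control (grey) and 4 Hdac1-deficient (red) libraries, with the mean and SD beside the points. Lgr5 and Olfm4 lie lower and Lct, Sis, Apoa1, Retnlb, Lyz1, Gcg and Cck higher in Hdac1-deficient libraries with no overlap, whereas Mki67, Ccnd1, Mmp7, Dclk1 and Cdx2 overlap.

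Enterocyte markers rose almost as one. Of 21 tested markers 20 rose and 8 (38.1%) were called higher, with a median of 0.87, and their share of all counts went from between 1.7842 and 1.9121% to between 3.2 and 3.5914%. Lct, the lactase gene, was counted at 31.5, 32.3, 31.01 and 34.02 CPM in control and 249.6, 222, 199 and 266 CPM in Hdac1-deficient libraries (log2 fold change 2.86, standard error 0.095, edgeR adjusted p = 7.4e-09). Sis, the sucrase-isomaltase gene, was counted at 2457, 2810.0, 2768 and 2819 CPM in control and 5931, 5096, 4847 and 6268 CPM in Hdac1-deficient libraries (log2 fold change 1.03, standard error 0.084, edgeR adjusted p = 1.8e-06), and lost its 2-fold call without control replicate 1, Hdac1-deficient replicate 1 or Hdac1-deficient replicate 4 (lowest value 0.96). Both disaccharidase genes lay higher in every Hdac1-deficient library. Tmigd1, an adhesion molecule of the brush border, was scarce in control and was counted at 0.268, 0.318, 0.331 and 0.294 CPM in control and 6.87, 5.83, 5.58 and 8.68 CPM in Hdac1-deficient libraries (log2 fold change 4.45, edgeR adjusted p = 5.0e-13). It passed the filter through the Hdac1-deficient libraries alone and had to differ. Alpi, the intestinal alkaline phosphatase gene, rose by less, with 439, 417, 431 and 446 CPM in control and 676, 642, 656 and 785 CPM in Hdac1-deficient libraries (log2 fold change 0.67, edgeR adjusted p = 2.4e-08).

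The wider list of brush border hydrolases behaved alike, with 24 of 25 members higher, 11 (44%) called higher, none lower and a median of 0.90. Naaladl1, a peptidase gene, was counted at 3.55, 3.33, 3.77 and 3.78 CPM in control and 115, 96.5, 101 and 122 CPM in Hdac1-deficient libraries (log2 fold change 4.91, standard error 0.091, edgeR adjusted p = 1.1e-15), against the downward shift of its chromosome, 19, described below. Enpp7, which encodes the alkaline sphingomyelinase that digests dietary sphingomyelin, was counted at 0.871, 0.354, 0.893 and 0.589 CPM in control and 24.2, 17.1, 20.7 and 21.4 CPM in Hdac1-deficient libraries (log2 fold change 4.91, standard error 0.17, edgeR adjusted p = 2.5e-12). Both genes were scarce in control, and their groups did not overlap. Mep1a, the meprin alpha subunit gene, was counted at 16.1, 14.96, 15.2 and 14.9 CPM in control and 78.7, 68.2, 64.1 and 72.3 CPM in Hdac1-deficient libraries (log2 fold change 2.21, edgeR adjusted p = 1.5e-16). Ace, the angiotensin-converting enzyme gene, was counted at 67.99, 69.5, 68.05 and 68.6 CPM in control and 157, 139.8, 137 and 163 CPM in Hdac1-deficient libraries (log2 fold change 1.12, edgeR adjusted p = 6.1e-13). Mgam, the maltase-glucoamylase gene, rose from 658, 864, 801 and 812 CPM to 1497, 1318, 1238 and 1492 CPM (log2 fold change 0.82, edgeR adjusted p = 1.1e-04) without reaching 2-fold.

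Lists of secretory cells were less uniform. Goblet cell markers had a median of 0.02, with 7 of 20 higher (4 called, 20%) and 5 lower. The mucin gene Muc2 was counted at 33.1, 51.3, 40.4 and 44.3 CPM in control and 89.8, 86.8, 73.9 and 85.2 CPM in Hdac1-deficient libraries (log2 fold change 0.99, edgeR adjusted p = 3.0e-04). Zg16, a lectin of the mucus layer, was counted at 92.5, 86.5, 87.8 and 96.3 CPM in control and 218, 259.5, 226 and 225 CPM in Hdac1-deficient libraries (log2 fold change 1.36, edgeR adjusted p = 1.6e-12). The trefoil factor gene Tff3 was counted at 442, 408, 398 and 430.5 CPM in control and 306, 334, 336 and 295 CPM in Hdac1-deficient libraries (log2 fold change -0.40, edgeR adjusted p = 2.2e-07). Muc2, Zg16 and Retnlb thus increased while Tff3 decreased. Muc2 passed the 2-fold limit without control replicate 2, control replicate 4 or Hdac1-deficient replicate 3 (highest value 1.10). Creb3l1, a membrane-bound transcription factor gene, was the single goblet marker called lower, from 78.3, 81.8, 79.9 and 73.8 CPM to 28.4, 31.9, 27.4 and 24.5 CPM (log2 fold change -1.48, edgeR adjusted p = 4.5e-13).

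Paneth cell markers were divided as well, with 5 of 16 higher (4 called, 25%), 6 lower (2 called) and a median of 0.02. Lyz1, the Paneth lysozyme gene, was counted at 605, 493, 515 and 574 CPM in control and 1270.0, 1347, 1322 and 1279 CPM in Hdac1-deficient libraries (log2 fold change 1.25, edgeR adjusted p = 1.4e-11). The pentraxin genes Mptx1 and Mptx2, near copies of each other whose counts are uncertain for that reason, had log2 fold changes of 1.42 and 1.71. Mmp7, the protease that activates Paneth defensins, was counted at 75.8, 71.4, 73.97 and 77.8 CPM in control and 72.7, 80.5, 79.8 and 74.4 CPM in Hdac1-deficient libraries and did not pass the test (edgeR adjusted p = 0.4). Pnliprp2 and Habp2, named after their values were seen, were the 2 markers called lower (log2 fold changes -1.22 and -1.03), and both lie on chromosome 19, whose genes were lower as a whole. Habp2 came under the 2-fold limit without Hdac1-deficient replicate 4 (-0.96).

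Enteroendocrine markers rose broadly. Of 27 tested markers 18 rose, 2 fell and 12 (44.4%) were called higher, with a median of 0.87, and the list's share of counts went from 0.0364 to 0.0378% in control to 0.0531 to 0.0596%. The hormone genes led the list. Gcg, the proglucagon gene of L cells, was counted at 2.01, 1.88, 1.98 and 2.19 CPM in control and 24.99, 31.4, 29.5 and 22.9 CPM in Hdac1-deficient libraries (log2 fold change 3.76, standard error 0.12, edgeR adjusted p = 2.6e-14). Cck, the cholecystokinin gene, was counted at 4.89, 3.36, 4.26 and 4.29 CPM in control and 12.8, 14.97, 15.6 and 11.7 CPM in Hdac1-deficient libraries (log2 fold change 1.71, edgeR adjusted p = 2.3e-10). Nts, the neurotensin gene, was counted at 0.201, 0.248, 0.265 and 0.252 CPM in control and 3.53, 2.92, 3.88 and 3.52 CPM in Hdac1-deficient libraries (log2 fold change 3.82, edgeR adjusted p = 2.7e-12). Unlike Gcg and Cck, Nts passed the filter through the Hdac1-deficient libraries alone and had to differ. Neurog3, the transient transcription factor that starts this lineage, moved the other way, with 19, 17.7, 19.4 and 16.9 CPM in control and 13.3, 14.02, 11.8 and 11.1 CPM in Hdac1-deficient libraries (log2 fold change -0.54, edgeR adjusted p = 2.4e-06). Chga, the general granule protein gene chromogranin A, rose only slightly, from 42.3, 40.7, 40.3 and 40.2 CPM to 44.03, 44.8, 46.6 and 44.5 CPM (log2 fold change 0.14, edgeR adjusted p = 0.0053).

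Tuft cell markers were scarce, their summed share lying between 0.002 and 0.0022% in control and 0.0045 and 0.0049% in Hdac1-deficient libraries, and 4 of 13 rose, with a median of 0.38. Plcg2, a phospholipase gene also active in other cells, was the sole member called (5.23, 5.55, 5.16 and 4.71 CPM to 25.8, 28.9, 27.2 and 26.96 CPM). Without control replicate 2, 2 members were called. Plcg2 made up most of the rise in the summed share, whereas the defining markers Dclk1 and Trpm5 did not pass the test (edgeR adjusted p = 0.56 and 0.62). M cell markers included no called gene among 8 tested. Of 17 genes of fetal and regenerating epithelium, 7 were called higher and 2 lower, with a median of 0.56. Clu, the clusterin gene of revival stem cells, was counted at 28.1, 29.3, 30.2 and 24.5 CPM in control and 101, 96.7, 77.9 and 99.5 CPM in Hdac1-deficient libraries (log2 fold change 1.74, edgeR adjusted p = 6.3e-08). The mesothelin gene Msln was counted at 31.7, 35.4, 34.9 and 30.4 CPM in control and 133, 121, 128 and 173 CPM in Hdac1-deficient libraries (log2 fold change 2.06, edgeR adjusted p = 2.9e-06). Ly6a, the Sca-1 gene that is the standard fetal marker, was counted at 15.2, 18.8, 16.3 and 13.3 CPM in control and 18.9, 16.4, 13.6 and 17 CPM in Hdac1-deficient libraries and did not pass the test (edgeR adjusted p = 0.76). The epidermal growth factor genes Ereg and Areg of this list moved apart, with log2 fold changes of 3.52 and -1.01, Areg being named after its values were seen. Ereg passed the filter through the Hdac1-deficient libraries alone and had to differ. Areg came under the 2-fold limit in 3 of the 8 fits with a library left out (smallest change -0.97).

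Few transcription factors of intestinal identity were called. In that list 12 of 29 rose and 8 fell, with a median of 0.01, and Maf alone was called (10.02, 10.8, 11.1 and 10.7 CPM to 22.4, 19.3, 21.4 and 24.6 CPM), a call lost without Hdac1-deficient replicate 4 (0.98). Hnf4a, a master regulator of enterocyte genes, had a log2 fold change of 0.09 (edgeR adjusted p = 0.017), which missed the threshold without control replicate 4 (adjusted p = 0.062). Of 34 nuclear receptors 15 rose, 12 fell and 4 were called, all lower, with 1 called higher without control replicate 3 or Hdac1-deficient replicate 1. The retinoic acid receptor gene Rarb was counted at 5.13, 5.41, 6.05 and 4.84 CPM in control and 0.758, 1.38, 1.03 and 1.25 CPM in Hdac1-deficient libraries (log2 fold change -2.27, edgeR adjusted p = 5.8e-11). The others were the clock repressor gene Nr1d1 (-1.06), Pparg (-1.01) and Esrrb, at least 7.11-fold lower and named after its values were seen. Esrrb passed the filter through the control libraries alone and had to differ. Pparg came under the limit, at -0.98, without control replicate 1 or Hdac1-deficient replicate 1. Nr1h4 and Ppara, which encode the bile acid receptor FXR and the fatty acid receptor PPARA, rose by 0.53 and 0.37 on the log2 scale (edgeR adjusted p = 2.1e-08 and 6.4e-06).

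Most subunits of HDAC complexes moved by less than 2-fold, with Hdac1 the only 1 of 42 called and a median of -0.02. Hdac2, the paralog, fell from 139.9, 136, 132 and 141 CPM to 115, 116, 114 and 107 CPM (log2 fold change -0.28, edgeR adjusted p = 1.0e-06).

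Patterning and germline genes, most at low levels, changed by large factors in both directions. Of 39 Hox genes, which give body segments their identity, 16 were listed and 11 passed the filter on low counts, 8 of them called lower and 3 higher. Since 4 of the 11 lay at or under the limit of detection in 1 group, these passed through the group where they were high and had to differ. Hoxa5 and Hoxb2 were also too weakly counted in Hdac1-deficient libraries to pass the filter on those alone. The filter thus favoured their fall, and the counts of 8 lower and 3 higher rest in part on it. Hoxa5 was counted at 5.03, 3.85, 3.77 and 4.46 CPM in control and 0.493, 0.459, 0.398 and 0.2198 CPM in Hdac1-deficient libraries (log2 fold change -3.43, edgeR adjusted p = 7.2e-12). Hoxa7 was counted at 2.35, 1.95, 2.02 and 1.64 CPM in control and 0.0379, 0, 0.0332 and 0.0366 CPM in Hdac1-deficient libraries, at least 17.5-fold lower (edgeR adjusted p = 2.4e-11). Hoxb7 had no count in control and 0.834, 0.524, 0.896 and 0.513 CPM in Hdac1-deficient libraries, at least 5.48-fold higher, and Hoxb6 was at least 7.08-fold higher. Hoxb6 and Hoxb7 are neighbours on chromosome 11, where Hoxb2 was called lower (-3.56). Of the germline genes, 8 of 39 were tested and 4 called higher. Rec8, the meiotic cohesin subunit, was counted at 0.134, 0.0707, 0 and 0.04205 CPM in control and 33.5, 35.97, 35.4 and 39.9 CPM in Hdac1-deficient libraries. Rec8 thus passed the filter through the Hdac1-deficient libraries alone and had to differ. Piwil2, a piRNA pathway gene, was counted at 0.536, 0.849, 0.992 and 0.673 CPM in control and 2.92, 2.65, 1.89 and 2.23 CPM in Hdac1-deficient libraries (log2 fold change 1.65, edgeR adjusted p = 6.0e-07). The synaptonemal complex gene Syce2 was called lower (-1.13).

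Neuronal genes and targets of the repressor REST did not move together, with 4 of 18 called higher, 3 lower and a median of 0.09. Scg2, the secretogranin II gene, was counted at 0.737, 0.672, 0.794 and 0.799 CPM in control and 3.38, 3.54, 3.38 and 2.35 CPM in Hdac1-deficient libraries (log2 fold change 2.07, edgeR adjusted p = 3.7e-09). Grin1, an NMDA receptor subunit gene, was counted at 18.8, 21.1, 20.9 and 21.2 CPM in control and 6.37, 7.305, 8.198 and 6.48 CPM in Hdac1-deficient libraries (log2 fold change -1.52, edgeR adjusted p = 1.1e-12). Axon guidance genes, many of which also act in epithelia, were more often lower, with 19 of 35 lower, 8 higher, 5 called lower and 1 called higher (0 without Hdac1-deficient replicate 3). Epha7, an ephrin receptor gene, was counted at 3.25, 4.598, 4.001 and 3.24 CPM in control and 0.266, 0.5896, 0.365 and 0.4396 CPM in Hdac1-deficient libraries (log2 fold change -3.16, edgeR adjusted p = 6.7e-11). The Hdac1-deficient libraries alone would not have carried Epha7 past the filter, which favoured its fall. Nrp2, a semaphorin co-receptor gene, was counted at 5.73, 7.32, 6.38 and 6.39 CPM in control and 1.1, 0.852, 1.16 and 1.099 CPM in Hdac1-deficient libraries (log2 fold change -2.61, edgeR adjusted p = 1.3e-12). The secreted ligand gene Slit2 was counted at 24.6, 33.7, 31.5 and 28.9 CPM in control and 9.48, 9.79, 7.57 and 6.81 CPM in Hdac1-deficient libraries (log2 fold change -1.82, edgeR adjusted p = 2.9e-07). Of 15 imprinted genes 1 was called, Kcnq1ot1 (-1.12), named after its values were seen, whose reads cannot be told from those of its antisense partner Kcnq1 and whose call was lost without control replicate 1 (-0.99). H19 and Igf2 stood at or below 0.694 CPM in every library.

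Signalling lists held few calls and opposed members. In the Notch list, 10 of 25 genes fell, 4 rose and none was called (1 lower without Hdac1-deficient replicate 2). Hes1, the main Notch target in crypts, went from 120.5, 116, 117 and 119 CPM to 93.6, 95.5, 101 and 93.9 CPM (log2 fold change -0.30, edgeR adjusted p = 2.7e-07). The receptor gene Notch1 had a log2 fold change of -0.17 (edgeR adjusted p = 0.042), above the threshold in 6 of the 8 fits with a library left out. Of 26 Wnt pathway genes 1 was called in each direction, the secreted inhibitor genes Notum (-3.15) and, on chromosome 19, Sfrp5 (3.05), named after their values were seen. Wnt3, the ligand made by Paneth cells, was counted at 8.48, 8.06, 8.498 and 7.86 CPM in control and 8.53, 8.29, 8.03 and 9.16 CPM in Hdac1-deficient libraries and did not pass the test (edgeR adjusted p = 0.63). In the BMP and TGF-beta list, Smad6, an inhibitor of BMP signalling, went from 6.77, 7.32, 7.27 and 7.02 CPM to 1.75, 1.25, 1.96 and 1.17 CPM (log2 fold change -2.21, edgeR adjusted p = 1.2e-11). In the EGF receptor list, 15 of 34 genes fell and 7 rose. Dusp4, a phosphatase induced by MAP kinase signalling, was counted at 65.8, 78.9, 74.7 and 71.02 CPM in control and 25.3, 26.9, 24.3 and 24.3 CPM in Hdac1-deficient libraries (log2 fold change -1.53, edgeR adjusted p = 9.0e-15). Ligands of the ErbB receptors moved apart. Nrg4 was counted at 4.86, 5.09, 4.96 and 5.63 CPM in control and 11.8, 10.5, 11.8 and 11.9 CPM in Hdac1-deficient libraries (log2 fold change 1.16, edgeR adjusted p = 1.2e-10). Btc, the betacellulin gene, was counted at 36.2, 38.98, 40.5 and 39.7 CPM in control and 16.9, 19.1, 19.2 and 18.8 CPM in Hdac1-deficient libraries (log2 fold change -1.06, edgeR adjusted p = 8.8e-13).

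Members of the clock list moved in opposite directions. Arntl, which encodes the activator BMAL1, was counted at 14.3, 14.5, 13.99 and 14.5 CPM in control and 34.2, 30.7, 31.2 and 32.5 CPM in Hdac1-deficient libraries (log2 fold change 1.16, edgeR adjusted p = 1.7e-13). Its output gene Dbp was counted at 43.96, 46.9, 49.7 and 46.3 CPM in control and 13.6, 16.4, 15.2 and 14.6 CPM in Hdac1-deficient libraries (log2 fold change -1.64, edgeR adjusted p = 2.8e-15). The repressor gene Nr1d1 was counted at 61.6, 68.8, 67.6 and 65.3 CPM in control and 32.5, 30.6, 31.5 and 31.8 CPM in Hdac1-deficient libraries (log2 fold change -1.06, edgeR adjusted p = 5.0e-14). Ciart lay at the 2-fold limit (-1.001) and passed it in 3 of the 8 fits with a library left out. The hour of harvest, which sets the phase of the clock, is not given in the sources used here, and its part in these values was not tested.

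Lists of lipid genes differed in their counts. Of 31 genes for lipoproteins, bile acids and cholesterol transport, 24 rose, 5 fell and 8 (25.8%) were called higher, with a median of 0.68. Apob, the structural protein of chylomicrons, was counted at 593, 799.5, 729 and 757 CPM in control and 1694, 1410.0, 1246 and 1725 CPM in Hdac1-deficient libraries (log2 fold change 1.08, edgeR adjusted p = 3.8e-04). It came under 2-fold without control replicate 1 (0.99). Mttp, which loads lipid onto it, was counted at 1090.0, 1086, 1073 and 1079 CPM in control and 1954, 1835, 1709 and 2094 CPM in Hdac1-deficient libraries (log2 fold change 0.81, edgeR adjusted p = 4.8e-11). Genes of sterol and fatty acid synthesis, by contrast, fell in 20 and rose in 9 of 36 cases, mostly by small amounts, with a median of -0.11. Acacb, whose product makes the malonyl-CoA that restrains mitochondrial fat uptake, was the sole called member, at 7.003, 10.1, 7.44 and 7.401 CPM in control and 1.06, 0.917, 0.796 and 0.586 CPM in Hdac1-deficient libraries (log2 fold change -3.24, standard error 0.17, edgeR adjusted p = 2.7e-12). Fatty acid oxidation genes rose in 21 and fell in 11 of 41 cases, with a median of 0.09. Cpt1a, the carnitine palmitoyltransferase gene, lies on chromosome 19 and had a log2 fold change of -0.62, close to that chromosome's median.

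Of 50 genes of glucose and fructose metabolism 23 rose and 21 fell, 8 (16%) were called higher and 2 (4%) lower, and the median was 0.00. Fbp1, the fructose-1,6-bisphosphatase gene, was counted at 89.2, 76.1, 77.04 and 85.1 CPM in control and 378, 358, 341 and 378 CPM in Hdac1-deficient libraries (log2 fold change 2.15, standard error 0.050, edgeR adjusted p = 1.1e-15). G6pc, which encodes the enzyme that frees glucose, was counted at 48.7, 42.8, 42.7 and 46.2 CPM in control and 156, 132, 131 and 163 CPM in Hdac1-deficient libraries (log2 fold change 1.69, standard error 0.080, edgeR adjusted p = 9.3e-09). Hk2, the hexokinase 2 gene, was counted at 94.8, 107, 101 and 100.5 CPM in control and 63.03, 60.9, 67.1 and 61.5 CPM in Hdac1-deficient libraries (log2 fold change -0.68, standard error 0.043, edgeR adjusted p = 3.1e-11). Fbp1 and G6pc act in glucose production, whereas hexokinase commits glucose to use. Glyctk, a kinase gene of fructose and serine breakdown, rose from 4.42, 4.14, 4.199 and 3.62 CPM to 17.9, 17.4, 15.8 and 18.6 CPM. Eno2, the neuronal enolase gene, fell from 2.85, 3.395, 3.902 and 4.08 CPM to 0.493, 0.328, 0.597 and 0.916 CPM. The Hdac1-deficient libraries alone would not have carried Eno2 past the filter, which favoured its fall.

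Transcripts of the mitochondrial genome rose, whereas nuclear genes of respiration did not lean either way. None of 52 nuclear genes of the TCA cycle and respiratory chain was called, with 13 higher, 12 lower, a median of -0.03 and citrate synthase (Cs) at a log2 fold change of -0.01. Of 15 transcripts of the mitochondrial genome, 14 rose and 5 were called higher, with a median of 0.71. mt-Cytb, the cytochrome b transcript, was counted at 1431, 1297, 1338 and 1414 CPM in control and 3905, 3711, 3386 and 3619 CPM in Hdac1-deficient libraries (log2 fold change 1.42, standard error 0.045, edgeR adjusted p = 7.5e-16). mt-Co1, which encodes cytochrome oxidase subunit I, was counted at 7270.0, 7132, 7157 and 7363 CPM in control and 11700.0, 10990.0, 10120.0 and 10910.0 CPM in Hdac1-deficient libraries (log2 fold change 0.60, standard error 0.043, edgeR adjusted p = 2.1e-10). Together these transcripts held 1.5058 to 1.5947% of counts in control and 2.5242 to 2.8759% in Hdac1-deficient libraries. The share of mitochondrial reads also moves with RNA quality and cell stress, whose part in these values was not tested.

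**Figure D4:**
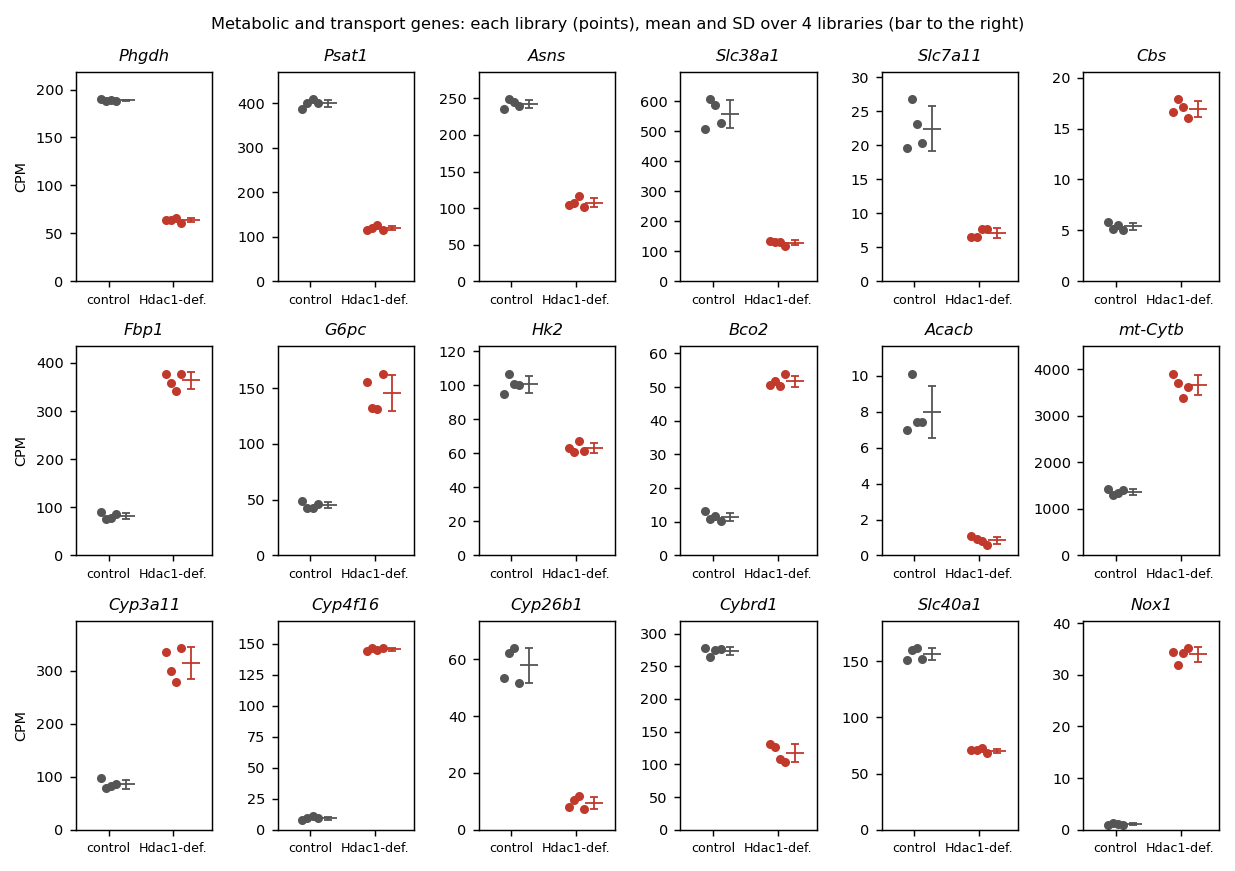
CPM (vertical axes, each from 0) of 18 metabolic and transport genes in each of 4 control (grey) and 4 Hdac1-deficient (red) libraries, with the mean and SD beside the points. In all 18 genes the groups do not overlap, with Phgdh, Psat1, Asns, Slc38a1, Slc7a11, Hk2, Acacb, Cyp26b1, Cybrd1 and Slc40a1 lower and the other 8 higher in Hdac1-deficient libraries. All but Hk2 were picked from called genes, of which 97.9% (higher) and 97.7% (lower) do not overlap, against 58.3% of all tested genes.

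Among the metabolic lists, amino acid synthesis had the most genes called lower. Of 36 tested genes of amino acid synthesis and targets of the stress factor ATF4, 24 fell, 6 rose, 8 (22.2%) were called lower and 1 higher, with a median of -0.37. The serine synthesis genes were among them. Phgdh, which starts serine synthesis, was counted at 189.9, 188, 189 and 188 CPM in control and 64.1, 63.7, 65.9 and 60.8 CPM in Hdac1-deficient libraries (log2 fold change -1.57, standard error 0.034, edgeR adjusted p = 1.7e-18). Psat1, the next enzyme of that path, was counted at 388, 402, 409.6 and 400.5 CPM in control and 116, 119.6, 126 and 115 CPM in Hdac1-deficient libraries (log2 fold change -1.75, standard error 0.035, edgeR adjusted p = 4.8e-19), a larger decrease than the median of its chromosome, 19. Asns, the asparagine synthetase gene, was counted at 236, 249, 245 and 239 CPM in control and 104, 107, 116 and 102 CPM in Hdac1-deficient libraries (log2 fold change -1.17, standard error 0.039, edgeR adjusted p = 1.4e-15). Each of these 3 genes lay lower in every Hdac1-deficient library. Aldh1l2, a mitochondrial folate enzyme gene, was counted at 25.3, 28.4, 27.9 and 25.9 CPM in control and 7.55, 6.06, 7.04 and 6.67 CPM in Hdac1-deficient libraries (log2 fold change -1.98, edgeR adjusted p = 3.8e-15). The exception was Cbs, which encodes the first enzyme of transsulfuration and was counted at 5.797, 5.13, 5.55 and 5.05 CPM in control and 16.6, 17.9, 17.1 and 16.1 CPM in Hdac1-deficient libraries (log2 fold change 1.65, standard error 0.072, edgeR adjusted p = 1.2e-13).

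Transporters of amino acids moved in both directions. Slc38a1, a neutral amino acid importer gene, was counted at 508, 607, 589 and 528 CPM in control and 134, 129, 132 and 116 CPM in Hdac1-deficient libraries (log2 fold change -2.12, standard error 0.062, edgeR adjusted p = 7.8e-12). Slc7a11, which imports cystine for glutathione synthesis and belonged to the antioxidant list, was counted at 19.5, 26.7, 23.1 and 20.4 CPM in control and 6.45, 6.42, 7.7 and 7.69 CPM in Hdac1-deficient libraries (log2 fold change -1.67, standard error 0.10, edgeR adjusted p = 7.0e-10). Apical transporters that take up digested protein went the other way. Slc6a20a, a proline transporter gene, was counted at 29.96, 29.1, 29.3 and 30.5 CPM in control and 128, 119.7, 124 and 143 CPM in Hdac1-deficient libraries (log2 fold change 2.11, edgeR adjusted p = 2.6e-17). Slc6a19, the main neutral amino acid transporter gene, was counted at 69.5, 60.3, 61.3 and 71.7 CPM in control and 132, 108, 102 and 147 CPM in Hdac1-deficient libraries (log2 fold change 0.89, edgeR adjusted p = 7.9e-04). Slc15a1, which encodes the peptide transporter PEPT1, was counted at 26.7, 28.3, 29.1 and 28.6 CPM in control and 46.5, 45.4, 42.1 and 44.6 CPM in Hdac1-deficient libraries (log2 fold change 0.66, edgeR adjusted p = 1.4e-10). In the whole list 14 of 22 rose, 6 fell and the median was 0.61. Apart from Slc7a11, no member of the antioxidant and thiol list was called, with 17 of 32 lower, 10 higher and a median of -0.10.

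Genes that make superoxide, hydrogen peroxide or nitric oxide rose in 11 of 16 cases, 8 (50%) of them called, with a median of 0.95. Nox1, the epithelial NADPH oxidase gene, was counted at 0.938, 1.38, 1.09 and 0.883 CPM in control and 34.4, 31.9, 34.2 and 35.2 CPM in Hdac1-deficient libraries (log2 fold change 4.97, standard error 0.093, edgeR adjusted p = 1.5e-19). Duox2, the dual oxidase gene of the apical membrane, was counted at 2.92, 4.14, 4.17 and 3.28 CPM in control and 10.9, 11.2, 11.98 and 11.98 CPM in Hdac1-deficient libraries (log2 fold change 1.66, edgeR adjusted p = 1.6e-11). Nos3, the endothelial nitric oxide synthase gene, named after its values were seen, was the member called lower (-1.04), a call lost without Hdac1-deficient replicate 4 (-0.98).

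Xenobiotic enzymes rose mainly in phase I. Of 50 phase I genes 32 rose, 12 fell, 16 (32%) were called higher and 1 lower, with a median of 0.53. Of 38 phase II genes 18 rose, 12 fell, 4 (10.5%) were called higher and none lower, with a median of 0.05. Cyp4f16, a fatty acid hydroxylase gene, was counted at 7.81, 9.16, 10.9 and 9.29 CPM in control and 144, 147, 145 and 146 CPM in Hdac1-deficient libraries (log2 fold change 3.96, standard error 0.061, edgeR adjusted p = 4.6e-20). Cyp3a11, a main drug-metabolizing cytochrome P450 of mouse gut and liver, was counted at 97.5, 79.2, 81.7 and 85.6 CPM in control and 335, 299.6, 279.7 and 344 CPM in Hdac1-deficient libraries (log2 fold change 1.87, standard error 0.086, edgeR adjusted p = 9.4e-08). Cyp2c29, on chromosome 19, was counted at 6.23, 5.66, 6.22 and 4.04 CPM in control and 35.2, 38.1, 35.2 and 37.3 CPM in Hdac1-deficient libraries (log2 fold change 2.70, edgeR adjusted p = 2.6e-15). Cyp2d22, Cyp2c29 and Cyp2c55 belong to gene clusters with close copies, so their counts are uncertain. Cyp2c55 (1.03) lost its call without control replicate 4 or Hdac1-deficient replicate 4 (lowest value 0.95). In phase II, Mgst2, a microsomal glutathione transferase gene, was counted at 72.3, 63.1, 67.6 and 70.6 CPM in control and 169, 167, 179.7 and 207 CPM in Hdac1-deficient libraries (log2 fold change 1.40, edgeR adjusted p = 1.7e-09). Ugt1a1, the bilirubin glucuronosyltransferase gene, was counted at 82.4, 80.6, 75.1 and 80.8 CPM in control and 95.2, 94.4, 91.8 and 106 CPM in Hdac1-deficient libraries (log2 fold change 0.28, edgeR adjusted p = 1.4e-05).

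Retinoid genes moved in both directions. Of 22 members 15 rose, 4 fell, 7 were called higher and 2 lower, with a median of 0.57. Bco2, which cleaves carotenoids, was counted at 13.2, 10.8, 11.7 and 10.3 CPM in control and 50.5, 51.8, 50.4 and 54.03 CPM in Hdac1-deficient libraries (log2 fold change 2.17, edgeR adjusted p = 1.2e-16). Lrat, which stores retinol as esters, was counted at 4.36, 3.25, 3.31 and 2.98 CPM in control and 7.62, 8.25, 8.33 and 8.13 CPM in Hdac1-deficient libraries (log2 fold change 1.21, edgeR adjusted p = 3.8e-09). Cyp26b1, which degrades retinoic acid, was counted at 53.5, 62.1, 64.01 and 51.8 CPM in control and 8.15, 10.4, 11.98 and 7.47 CPM in Hdac1-deficient libraries (log2 fold change -2.60, standard error 0.14, edgeR adjusted p = 3.5e-07). The other member called lower, the retinal dehydrogenase gene Aldh8a1, was counted at 3.52, 2.58, 3.24 and 2.397 CPM in control and 0.493, 0.393, 0.465 and 0.3297 CPM in Hdac1-deficient libraries (log2 fold change -2.80, edgeR adjusted p = 3.3e-10). The Hdac1-deficient libraries alone would not have carried Aldh8a1 past the filter, which favoured its fall. Aldh1a1, the chief retinaldehyde dehydrogenase of the list, did not pass the test (621, 545, 553 and 591 CPM in control and 586, 575, 556 and 621 CPM in Hdac1-deficient libraries; edgeR adjusted p = 0.73), although it lies on chromosome 19. Bco2 and Il18 below are neighbours whose annotated starts overlap on opposite strands of chromosome 9, and since strand use in counting is not stated, their reads cannot be told apart with certainty.

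In the list of metal and calcium genes 11 of 26 rose, 11 fell, 1 was called higher and 3 lower, and the median was -0.01. Among its iron genes, a pair was called lower. Cybrd1, the apical ferric reductase gene, was counted at 278, 264, 274 and 276 CPM in control and 132, 127, 108 and 104 CPM in Hdac1-deficient libraries (log2 fold change -1.21, standard error 0.069, edgeR adjusted p = 4.3e-08). Slc40a1, which encodes the basolateral iron exporter ferroportin, was counted at 151, 160.4, 162 and 152 CPM in control and 70.8, 70.6, 72.4 and 68.1 CPM in Hdac1-deficient libraries (log2 fold change -1.15, standard error 0.036, edgeR adjusted p = 6.7e-16). In both genes the groups did not overlap. The other member called lower was Slc39a8, a zinc and manganese importer gene (-1.19). Slc11a2, the apical iron transporter DMT1, fell by less, from 334, 362, 373 and 322 CPM to 258, 283, 260.4 and 272 CPM (log2 fold change -0.37, edgeR adjusted p = 5.9e-07). Ion and water transport genes had 6 of 33 called higher and 2 lower, with a median of 0.06. Ano1, a calcium-activated chloride channel gene, was counted at 9.85, 9.62, 8.498 and 8.704 CPM in control and 35.7, 30.8, 32.6 and 40.9 CPM in Hdac1-deficient libraries (log2 fold change 1.93, edgeR adjusted p = 7.9e-12). Car8, a carbonic anhydrase-related gene, was counted at 152, 145, 141 and 152 CPM in control and 47.6, 49.6, 47.5 and 44.8 CPM in Hdac1-deficient libraries (log2 fold change -1.64, edgeR adjusted p = 1.5e-17). Cftr, the cystic fibrosis chloride channel gene, did not pass the test at 179.9, 215, 207 and 199 CPM in control and 218, 210.2, 203 and 196 CPM in Hdac1-deficient libraries (edgeR adjusted p = 0.43).

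Host defence lists leaned upwards, many of their members from low levels. Of 36 interferon response genes 23 rose, 6 fell, 10 (27.8%) were called higher and 4 lower, with a median of 0.54. Oas1a, an antiviral RNA sensor gene, was counted at 0.804, 0.9903, 0.794 and 0.673 CPM in control and 5.61, 7.11, 6.804 and 6.85 CPM in Hdac1-deficient libraries (log2 fold change 3.004, edgeR adjusted p = 3.5e-13). Isg15, a ubiquitin-like modifier gene, was counted at 0.302, 0.283, 0.364 and 0.294 CPM in control and 1.06, 1.51, 1.39 and 1.14 CPM in Hdac1-deficient libraries (log2 fold change 2.02, edgeR adjusted p = 4.0e-07). Both lay higher in every Hdac1-deficient library. Isg15 was too weakly counted in control to pass the filter on those libraries alone, so the filter favoured its rise. Trim30d and Trim12c, of a cluster with close copies, moved by -2.74 and 1.94 and are uncertain. Of 25 antigen presentation genes 19 rose, 3 fell and 6 (24%) were called higher. Psmb8, an immunoproteasome subunit gene, was counted at 0.838, 0.637, 0.595 and 0.925 CPM in control and 9.595, 9.43, 9.16 and 7.91 CPM in Hdac1-deficient libraries (log2 fold change 3.60, standard error 0.14, edgeR adjusted p = 1.2e-14). B2m, the light chain of class I molecules, was counted at 297, 265, 269 and 274 CPM in control and 324, 338, 328 and 318 CPM in Hdac1-deficient libraries (log2 fold change 0.24, edgeR adjusted p = 9.2e-06).

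Of 48 NF-kB, cytokine and Toll receptor genes 30 rose, 7 fell, 9 (18.8%) were called higher and 1 lower, with a median of 0.38. Il18, an epithelial cytokine gene, was counted at 9.45, 9.05, 9.03 and 10.1 CPM in control and 41.1, 39.6, 41.5 and 45.1 CPM in Hdac1-deficient libraries (log2 fold change 2.15, standard error 0.058, edgeR adjusted p = 7.1e-17). Nfkbiz, an NF-kB cofactor gene, was counted at 11.7, 11.1, 11.1 and 11.7 CPM in control and 28.1, 26.6, 33.2 and 30.6 CPM in Hdac1-deficient libraries (log2 fold change 1.38, edgeR adjusted p = 6.9e-13). Tnf remained scarce after a rise from 0.469, 0.177, 0.463 and 0.547 CPM to 2.69, 3.18, 2.75 and 3.11 CPM (log2 fold change 2.83, edgeR adjusted p = 5.0e-10). The control libraries alone would not have carried Tnf past the filter, which favoured its rise. Antimicrobial genes were called in both directions, 7 higher and 4 lower of 20. Reg3b, a bactericidal lectin of enterocytes and Paneth cells, was counted at 16.6, 12.7, 10.6 and 13.2 CPM in control and 315, 315, 292 and 294 CPM in Hdac1-deficient libraries (log2 fold change 4.52, standard error 0.10, edgeR adjusted p = 2.3e-10). Its relative Reg3g was counted at 118, 101, 101 and 111 CPM in control and 241, 238, 247 and 237 CPM in Hdac1-deficient libraries (log2 fold change 1.16, standard error 0.043, edgeR adjusted p = 1.9e-14). The 4 called lower, named after their values were seen, were Reg1 (-1.15), Sprr2a1 (-2.18), Sprr2a2 (-2.29) and Nlrp10 (-1.76), of which the Sprr2a genes are near copies.

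Of 37 matrix and integrin genes 6 were called higher and 2 lower (1 without control replicate 3), with a median of 0.33. Col4a1 and Col4a2, the head-to-head genes of type IV collagen on chromosome 8, rose together. Col4a1 was counted at 2.95, 3.78, 3.67 and 2.61 CPM in control and 41.1, 33.1, 33.4 and 47.8 CPM in Hdac1-deficient libraries (log2 fold change 3.56, standard error 0.18, edgeR adjusted p = 1.5e-07). Col4a2 was counted at 2.04, 2.55, 2.31 and 2.06 CPM in control and 26.4, 21.9, 20.3 and 30.1 CPM in Hdac1-deficient libraries (log2 fold change 3.45, standard error 0.15, edgeR adjusted p = 4.6e-10). Of 32 junction genes 2 were called higher and 1 lower, with a median of 0.12. The pore-forming claudin gene Cldn2, a crypt marker, fell from 427, 429, 421 and 416 CPM to 279.7, 290.2, 287 and 266 CPM (log2 fold change -0.59, edgeR adjusted p = 4.5e-12). Cldn15, another pore-forming claudin gene, rose from 449, 431, 439 and 447 CPM to 590.0, 567, 580.3 and 594 CPM (log2 fold change 0.40, edgeR adjusted p = 7.5e-10). Evpl (0.99 without control replicate 1) and Cgnl1 (-0.98 without control replicate 2) lay at the 2-fold limit.

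Glycosyltransferases had 4 of 41 members called higher and 3 lower, with a median of 0.07 that turned to -0.07 when genes of chromosomes 19, X and Y were left out. St3gal4 (ENSMUSG00000032038, chromosome 9, 35046576 to 35119268), which adds terminal sialic acid, was counted at 7.07, 8.31, 8.46 and 8.24 CPM in control and 288, 299.7, 303 and 328 CPM in Hdac1-deficient libraries (log2 fold change 5.25, standard error 0.056, edgeR adjusted p = 3.3e-23). St6gal1, another sialyltransferase gene, was counted at 0.402, 0.389, 0.364 and 0.463 CPM in control and 3.83, 4.19, 3.35 and 3.11 CPM in Hdac1-deficient libraries (log2 fold change 3.16, edgeR adjusted p = 1.1e-11). Mgat4c, of a family of N-glycan branching enzymes, was counted at 3.42, 3.89, 3.08 and 3.41 CPM in control and 14.3, 13.3, 15.7 and 17.03 CPM in Hdac1-deficient libraries (log2 fold change 2.13, edgeR adjusted p = 2.1e-13). In none of these 3 genes did the groups overlap. Fut2, the fucosyltransferase gene induced by microbes, rose by less than 2-fold, from 2.48, 3.29, 3.11 and 2.86 CPM to 4.47, 3.96, 4.12 and 4.54 CPM (log2 fold change 0.54, edgeR adjusted p = 4.1e-04). Unfolded protein response genes had 1 member called in each direction (2 lower without control replicate 1), Ern1 (1.08) and Creb3l1 (-1.48), with a median of 0.08 and Xbp1 at 0.01 (edgeR adjusted p = 0.86). Of 12 heat shock genes 1 was called, the small heat shock gene Cryab (2.52), named after its values were seen, whereas the inducible Hspa1a and Hspa1b, near copies of each other, did not pass the test (edgeR adjusted p = 0.23 and 0.29).

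Genes of chromosome 19 were lower as a whole. Over its 471 tested protein-coding genes the median log2 fold change was -0.527, whereas the medians of the other autosomes and the X chromosome lay between -0.052 and 0.065. On chromosome 19, 8.07% of genes were called lower and 5.52% higher. In the fit of all 12 libraries the median of these genes was -0.526 for Hdac2-deficient against the same control libraries and 0.020 for Hdac1-deficient against Hdac2-deficient libraries. The control libraries thus stood apart from both mutants over this chromosome, which holds Psat1, Cpt1a, Naaladl1, Aldh1a1, Cyp2c29, Cyp2c55, Pnliprp2, Habp2 and Sfrp5 above, and the number of copies of chromosome 19 was not measured. Xist, the RNA that coats the inactive X chromosome, was counted at 1.71, 1.42, 1.72 and 1.43 CPM in control and 866, 784, 973 and 1087 CPM in Hdac1-deficient libraries, and its reads cannot be told from those of its antisense partner Tsix. The Y-linked genes Ddx3y, Eif2s3y, Kdm5d and Uty were not listed, so their counts summed to under 10 over the 8 libraries. The sole tested protein-coding gene annotated to the Y chromosome was called higher, at a log2 fold change of 2.563. The X chromosome's median was -0.025 over 362 genes.

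**Figure D5:**
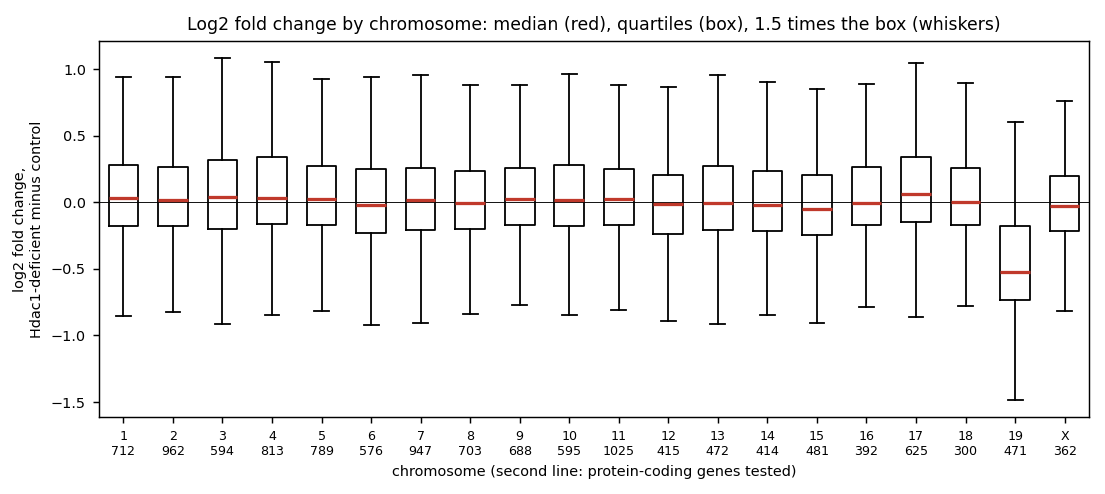
Boxes of the log2 fold change (Hdac1-deficient minus control, vertical axis) of tested protein-coding genes on each chromosome (horizontal axis, number of genes below), with medians in red, quartiles as boxes and whiskers to 1.5 times the box. The box of chromosome 19 lies below all others, at a median of -0.527.

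Set directly against Hdac2-deficient libraries in the fit of all 12, 816 of 14510 tested genes (5.62%) differed by more than 2-fold, with 397 (2.74%) higher and 419 (2.89%) lower in Hdac1-deficient enteroids. At any fold, 45.9% differed, with 22.3% higher and 23.7% lower, the shares against which the counts at any fold below are to be set. St3gal4 was higher than in Hdac2-deficient libraries by 5.85 on the log2 scale (edgeR adjusted p = 2.0e-15), Crym by 3.98 (adjusted p = 2.1e-15), Naaladl1 by 2.95 (adjusted p = 2.0e-15) and Enpp7 by 2.68 (adjusted p = 6.2e-14). Lower were Tmem121 at -6.11 (adjusted p = 6.6e-17), Tbxas1 at -4.59 (adjusted p = 5.3e-19) and Cyp4a10 at -2.93 (adjusted p = 1.4e-12). Of the 36 amino acid synthesis genes 27 were lower and 5 higher than in Hdac2-deficient libraries at any fold, 3 and 1 of them by more than 2-fold. Phgdh lay at -0.89 and Asns at -1.01 (edgeR adjusted p = 1.3e-16 and 3.7e-16), whereas Cbs lay at 1.41 (adjusted p = 2.0e-14). Transcripts of the mitochondrial genome differed at any fold in 12 of 15 cases, mt-Cytb by 0.99 (adjusted p = 9.5e-11). Of 21 enterocyte markers 14 were higher and 3 lower at any fold, Lct by 0.83 (adjusted p = 3.2e-04), and of 19 stem cell markers 8 were higher and 4 lower, none by more than 2-fold.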

How the data were processed

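RNA-Seq libraries were prepared from poly(A)-selected RNA with a directional kit and sequenced as paired reads of 100 nucleotides. Per the labels and the study's methods, the authors aligned reads to GRCm38 with STAR (2.4.0f1 in the submitters' processing notes, with bcl2fastq 1.8.4); the counting program and its use of strand are not given in the sources used here. Counts were deposited as raw numbers of reads on each gene; genes whose 8 counts summed to under 10 are not listed. Deposited beside them, and not used, were a normalized score in each library, the log2 fold change and average log2 CPM, and p-values of DESeq and edgeR. Control counts of the Hdac1 and Hdac2 tables were identical over 17972 shared genes.

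Counts were tested with edgeR (4.0.16, R 4.3.3) by the robust quasi-likelihood F test after TMM normalization (factors 0.9926 to 1.0101) and filterByExpr, in a fit of the 8 libraries, with Benjamini-Hochberg adjustment over 14246 genes; standard errors are the log2 fold change divided by the square root of F. The biological coefficient of variation was 0.0425. Where no library of a group exceeded 3 counts, the fold is a lower bound against 3 counts in the shallowest of them. The same test over all 12 libraries (14510 genes) compared the mutants. Positions and biotypes are from GENCODE M21 (GRCm38), which held 99.4% of listed genes, and promoter windows from RefSeq.

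The comparison, the 51 lists and the tests were chosen with earlier results of these data known. Genes were named by rule: the 10 largest increases and 10 largest decreases among called protein-coding genes (average log2 CPM 1 or more, groups not overlapping), the first 2 members of each list and its 3 most changed called members (average log2 CPM 0 or more), and Xist with 4 Y-linked genes. Others are marked, and some of those the rule names are not reported here. Alternatives were DESeq2 (1.42.0), other size factors, other filters, the replicate number as a block, other thresholds, all 12 libraries, omission of chromosomes 19, X and Y, and omission of single libraries. On simulated counts the test recovered 200 of 200 genes changed 3-fold with 0 false calls among 14072 genes. Changes were planted only in well-counted genes, with the spread fitted to these libraries, so this outcome was nearly assured. The simulation says nothing of weakly expressed genes or of differences between mice or lines. No library was left out. Replicates of a group differed by more than counting noise (chi-square per degree of freedom 1.52 to 8.18), control replicate 1 being the farthest from its group. Python 3.11.15 (numpy 2.4.6, pandas 2.3.3, matplotlib 3.10.9) was used for lists and figures.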

Additional observations from a re-analysis of the deposited data

Results flagged for a closer look

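Of 400 groups of 4 libraries checked over the named genes, 16 held a library far from the other 3, at a limit where chance flags about 1 group in 20, or 20 of 400. In control replicate 1, Sis stood at 2457 CPM against 2768 to 2819 CPM in the other 3 control libraries, Grin1 at 18.77 against 20.93 to 21.19 CPM, H2-Q6 at 0.7707 against 1.379 to 1.43 CPM and St3gal4 at 7.07 against 8.242 to 8.465 CPM, whereas Itgam at 0.9383 (others 0.7936 to 0.8135) and Pparg at 38.17 CPM (others 34.95 to 35.44) were higher than elsewhere. This library accounted for 6 of the 16 and was also the farthest from its group over all genes. Acacb in control replicate 2 was highest, at 10.12 against 7.003 to 7.44 CPM. In Hdac1-deficient replicate 1, Ccnd1 was highest at 205.9 CPM (others 192.2 to 194.1), and Pparg at 16.38 (others 18.08 to 18.32) and Btc at 16.95 CPM (others 18.83 to 19.18) were lowest. In Hdac1-deficient replicate 2, Nrg4 was lowest at 10.51 CPM (others 11.75 to 11.87) and Atp5a1 highest at 1812 CPM (others 1767 to 1770). Col1a1 stood at 0.03319 CPM in Hdac1-deficient replicate 3, against 0.1832 to 0.1965 CPM. In Hdac1-deficient replicate 4, Lgr5 was lowest at 137.1 CPM (others 151.9 to 153.5), Scg2 lowest at 2.345 (others 3.375 to 3.538) and Apoa1 highest at 2591 CPM (others 2427 to 2454). Among the called genes listed here none lost its call without the library concerned except Sis and Pparg, as given with their values above.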

How the results depend on the processing

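Other size factors, DESeq2, a filter on the mean count, all 12 libraries in 1 fit, chromosomes 19, X and Y left out, a limit of 0.01 on the adjusted p and a test against a 1.5-fold change kept the counts of called genes within 1.5 times of 979 higher and 528 lower, with DESeq2 at 1421 and 661. Without a filter on low counts 1581 genes were called higher and 754 lower, and without a limit on the fold change 4656 and 4540. With 1 library left out, the counts ran from 966 to 1082 and from 525 to 585, and those against Hdac2-deficient libraries from 383 to 443 and from 415 to 450. With the replicate number as a block, 978 and 523 genes were called against control (975 and 523 of them as before) and 393 and 419 against Hdac2-deficient libraries; deviations of same-numbered libraries had correlations of -0.053 to 0.05, the labels do not tie the numbers together, and not every library correlated best with its own number.

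Of the list medians (log2), those which moved by more than the spread of libraries are given here. Without a filter they were 0.54 for non-epithelial markers, 1.64 for germline, 0.31 for neuronal, -0.26 for axon guidance, -0.02 for nuclear receptor, 0.09 for BMP, 0.80 for lipoprotein, 0.51 for phase I, 1.02 for superoxide and nitric oxide, 0.52 for amino acid transporter, 0.04 for ion transport, 0.61 for interferon, 0.64 for antigen presentation, 0.68 for antimicrobial, 0.38 for matrix and 0.12 for glycosyltransferase genes. At a mean of at least 10 counts, they were 0.44 for germline and -0.14 for EGF receptor genes. Without chromosomes 19, X and Y they were 0.42 for germline, -0.30 for axon guidance, 0.05 for glucose, 0.66 for retinoid, 1.02 for superoxide and nitric oxide, 0.06 for metal and 0.61 for interferon genes, and glycosyltransferases turned to -0.07. With 1 library left out, ranges were 0.25 to 0.41 for tuft, 0.92 to 1.13 for germline, -0.00 to 0.18 for neuronal, -0.24 to -0.14 for imprinted, -0.17 to -0.13 for Notch, -0.04 to 0.02 for BMP, -0.16 to -0.07 for EGF receptor, -0.33 to -0.17 for clock, -0.04 to -0.00 for nuclear respiratory, 0.72 to 0.76 for mitochondrially encoded, 0.53 to 0.59 for retinoid, 0.52 to 0.59 for phase I, 0.02 to 0.07 for ion transport, 0.52 to 0.55 for interferon, 0.29 to 0.35 for matrix and 0.07 to 0.09 for unfolded protein response genes. Among genes averaging 3 or more on the log2 CPM scale, the median of chromosome 19 was -0.568, and those of the other autosomes and the X chromosome -0.063 to 0.019. Filters change which genes are tested; the cause of the other shifts was not tested.

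Of 200 named genes that were tested, 6 took the other sign under some setting (Ccnd1, Xbp1, Ly6a, Aldh1a1, Mki67 and Cftr), and none of these 6 passed the test or exceeded 0.066 in size on the log2 scale with all libraries. Under the test against a 1.5-fold change 35 named genes with smaller changes no longer passed, and Igf2, Notch1, Bmp2 and Lama5 lost significance under several of the other settings. Depth limits genes near 3 counts, whose folds are bounds.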
